A study of Homo sapiens with 24 samples.

Results

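The 8 genes described here encode successive steps of the cascade that runs from RAS through RAF and MEK to ERK. They are HRAS and NRAS at the RAS step, ARAF and BRAF at the RAF step, the scaffold gene KSR1, MAP2K1 and MAP2K2 at the MEK step, and MAPK3 at the ERK step. They were chosen by gene symbol, and all 8 were found among the 60448 symbols that each of the 4 deposited tables lists. All 8 passed the filter on low counts in each of the 8 comparisons below.

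RAS proteins are small GTPases at the inner face of the plasma membrane that are active when bound to GTP and that recruit RAF kinases there. Active RAF proteins work as dimers, phosphorylate MEK and so lead to phosphorylation of ERK, and KSR1 holds RAF, MEK and ERK together. The cascade passes growth factor signals to the cell cycle, motility and survival, and much of its control acts on the proteins rather than on the amount of their RNA, which is all that was measured here.

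RNA was sequenced from 2 human lines of immortalized prostate epithelium. BPH-1, immortalized with SV40, was grown in a serum medium that the labels call DMEM and the methods RPMI. RWPE-1, immortalized with HPV18, was grown in serum-free keratinocyte medium with EGF and pituitary extract, so line and medium cannot be told apart. Vector control cells carried the empty lentiviral vector with a firefly luciferase reporter under the ubiquitin promoter (3 BPH-1 libraries, 1 RWPE-1 library), and C-Raf parental cells carried wild-type C-Raf in the same vector (3 and 4 libraries). The paper states that both lines also received a Gaussia luciferase reporter. The library titles name it (sGluc) only for the BPH-1 vector control and parental libraries, not for RWPE-1 or the BPH-1 metastasis-derived libraries. Metastasis-derived cells were C-Raf cells recovered from NSG mice, which lack T, B and NK cells, after injection into the heart and grown again in culture for about a week (6 and 7 libraries). The RWPE-1 lines came from lymph node (2), spine (2) and bone (3). For BPH-1, 4 lines came from bone, and the title and the treatment label of 2 lines numbered R075 name different sites, so those 2 lines were used without a site. The labels do not say whether libraries of a group came from separate cultures, so p-values measure only the spread between these libraries, which may be technical.

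The 12 RWPE-1 libraries held 33615679 to 43037870 counts, and the 6 BPH-1 vector control and parental libraries held 25997814 to 33551459. The 8 genes together had 17834 to 25449 counts in each of these BPH-1 libraries. In 3 BPH-1 metastasis-derived libraries, bone R071, bone R074 and the R075 library titled bone, RN7SL1 (the RNA of the signal recognition particle) took 93.3% to 97.5% of all counts, and 111182 to 464747 protein-coding counts were left. These low-depth libraries were kept out of the comparisons. The other 3 BPH-1 metastasis-derived libraries had 20573697 to 28138443 protein-coding counts, with 4.60% to 30.3% of all counts on RN7SL1 against at most 0.00932% in the vector control and parental libraries and in RWPE-1. The 95% Wilson intervals of the RN7SL1 shares were at most 0.0326 percentage points wide and cover counting error only. All 7 epithelial markers checked were above 1 CPM in each of the 21 deeper libraries, whereas the luminal secretory marker KLK3 was at 0 in all of them. In BPH-1, all metastasis-derived libraries came in 1 table and all vector control and parental libraries in another, so stage and table cannot be told apart in that line.

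Levels are protein-coding counts scaled to library size (CPM) after TMM scaling over the 21 deeper libraries. The BPH-1 metastasis-derived library R072, with 30.3% of its counts on RN7SL1, had a TMM factor of 0.593. All other factors lay between 0.947 and 1.10. Where R072 lies beside R069 and R075 therefore depends on this factor. Differences are log2 fold changes from edgeR's quasi-likelihood test with standard errors (SE), and a gene was called at a Benjamini-Hochberg adjusted p below 0.05 over all genes tested. In these bulk samples, fewer cells of a type and less RNA per cell cannot be told apart.

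With C-Raf overexpression in BPH-1, the cascade genes were called about as often as genes at large. Of the 8 genes, NRAS rose and ARAF, KSR1, MAP2K2 and MAPK3 fell, a count of 5 that stands against a background of 59.8% of 13244 genes called in this comparison. KSR1 changed most, to 0.668 of its vector control level, and the log2 changes of the other 4 lay between -0.20 and 0.13. The biological coefficient of variation among these libraries was 2.43%, against 24.3% among the RWPE-1 libraries. From parental to metastasis-derived BPH-1 cells, BRAF rose and MAP2K2 fell, 2 of the 8 genes where 37.7% of 13470 genes were called. In RWPE-1, 0 of the 8 genes were called between vector control and parental cells, where 0.396% of 13901 genes were called, and 0 between parental and metastasis-derived cells, where 0.115% were called. At an unadjusted p below 0.05, 1 and 0 of the 8 genes passed in these RWPE-1 comparisons, beside 2506 and 1132 of 13901 genes. DESeq2 also called 0 of the 8 in each.

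**Figure D1:**
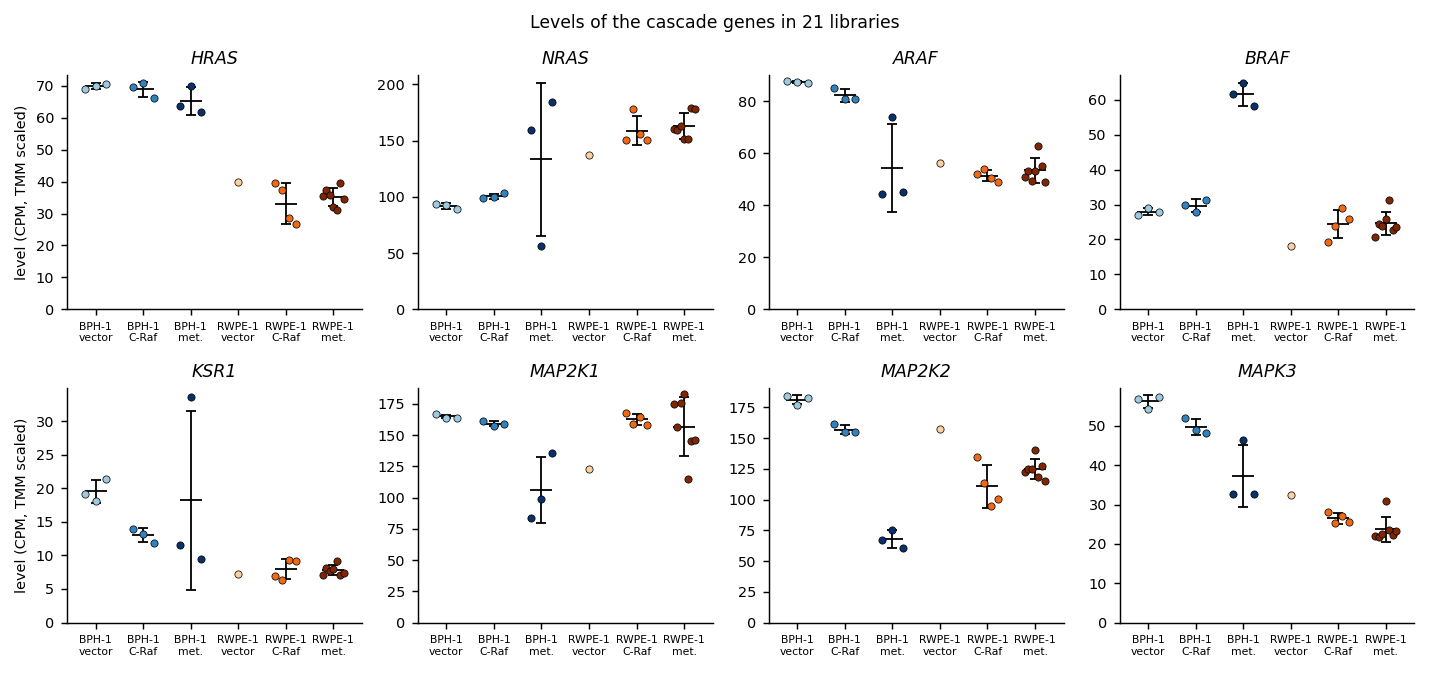
Level of each cascade gene in the 21 deeper libraries, in CPM with TMM scaling on an axis from 0. Points are libraries, the horizontal bar is the group mean and the whiskers are 1 SD (the RWPE-1 vector control is 1 library). The 3 BPH-1 metastasis-derived libraries of BRAF lie at 58.3 to 64.9 CPM, above all other libraries, and those of MAP2K2 at 60.3 to 74.98 CPM, below all others.

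HRAS and NRAS encode RAS GTPases. HRAS lies on the minus strand of chromosome 11 at 532242 to 537287, and NRAS on the minus strand of chromosome 1 at 114704469 to 114716894 (GRCh38, GENCODE 29). HRAS measured 69.02, 70.1 and 70.6 CPM in the BPH-1 vector control libraries, 69.7, 70.8 and 66.1 CPM in the parental libraries, and 63.8, 70.1 and 61.7 CPM in the metastasis-derived libraries R069, R072 and R075. The 3 BPH-1 stages overlapped. In RWPE-1, HRAS was at 39.7 CPM in the vector control, at 39.7, 37.3, 28.6 and 26.7 CPM in parental cells and between 31.1 and 39.6 CPM (median 35.6) in metastasis-derived cells. Every RWPE-1 library was thus below every BPH-1 library. The log2 difference between RWPE-1 and BPH-1 at the parental stage was -1.06 (SE 0.12, adjusted p = 8.6e-07), in a comparison where 56.8% of 15251 genes were called. The log2 change of HRAS was -0.02 (adjusted p = 0.702) with C-Raf and -0.01 (adjusted p = 0.947) from parental to metastasis-derived BPH-1 cells, the latter with an approximate 95% interval of -0.31 to 0.28.

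NRAS measured 93.7, 93.1 and 88.7 CPM in BPH-1 vector control cells and 98.8, 99.7 and 103 CPM in parental cells. The groups did not overlap, and NRAS rose by 0.13 on the log2 scale (SE 0.03, adjusted p = 8.5e-04). The metastasis-derived libraries held 159.8, 55.9 and 184 CPM, so R069 and R075 lay above the parental range and R072 below it. The log2 change was 0.46 (SE 0.40, adjusted p = 0.402) over the 3 libraries. Without R072 it was 0.80 (SE 0.09, adjusted p = 0.0014). Each library was left out in turn, and the fits quoted for single genes here and below are those where a call or a sign changed. They were thus picked by their result, and their SE and adjusted p are no separate test of the change. In RWPE-1, NRAS was at 137 CPM in the vector control, at 151, 178, 156 and 151 CPM in parental cells and between 151 and 179 CPM (median 160.4) after metastasis. Parental and metastasis-derived RWPE-1 cells covered nearly the same range, and the log2 change between them was 0.04 (95% interval -0.10 to 0.18). NRAS was higher in RWPE-1 than in BPH-1 at the parental stage by 0.66 on the log2 scale (SE 0.24, adjusted p = 0.0244), the reverse of HRAS.

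ARAF and BRAF encode the other RAF kinases, which can form dimers with C-Raf. ARAF lies on the plus strand of chromosome X at 47561100 to 47571920, and BRAF on the minus strand of chromosome 7 at 140719327 to 140924928. ARAF measured 87.7, 87.5 and 87.0 CPM in BPH-1 vector control libraries and 85.1, 81.0 and 80.8 CPM in parental libraries. It fell by 0.08 on the log2 scale (SE 0.03, adjusted p = 0.029), a call that was lost with DESeq2 (adjusted p = 0.06), with length and GC offsets (adjusted p = 0.445), and without vector control library 1 or 3 or parental library 2 or 3. In metastasis-derived cells ARAF was at 44.4, 73.9 and 45.0 CPM, all below the parental range, with R072 the highest. The log2 change of -0.53 (SE 0.26) did not pass the test (adjusted p = 0.151). Without R072 it was -0.85 (SE 0.07, adjusted p = 6.9e-04).

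BRAF measured 27.1, 28.9 and 27.8 CPM in BPH-1 vector control cells and 30.0, 27.8 and 31.3 CPM in parental cells. These ranges overlapped, and the log2 change of 0.09 (SE 0.05) was not called (adjusted p = 0.104). It became a call without parental library 2, at 0.14 (adjusted p = 0.027). In metastasis-derived cells BRAF was at 61.6, 64.9 and 58.3 CPM, above every parental library, and with TMM scaling R072 did not stand apart. Before scaling, R072 held 791 BRAF counts among 20573697 protein-coding counts, and R069 held 1748 among 28138443. BRAF rose by 1.12 on the log2 scale (SE 0.15, adjusted p = 0.00374), 2.17 times the parental level. With length and GC offsets, chosen after seeing the data, the change was 0.50 and the call was lost (adjusted p = 0.0849). Part of the BRAF locus, 3464 bases, overlaps NDUFB2 on the opposite strand, and it is not stated whether the counting used strand.

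In RWPE-1, ARAF was at 56.4 CPM in the vector control, at 52.1, 54.0, 50.4 and 49.1 CPM in parental cells and between 49.0 and 62.6 CPM (median 53.2) in metastasis-derived cells. BRAF was at 18.1 CPM in the vector control, at 19.3, 23.9, 28.97 and 25.7 CPM in parental cells and between 20.6 and 31.3 CPM (median 23.9) in metastasis-derived cells. For both genes the parental and metastasis-derived ranges overlapped. The log2 change from parental to metastasis-derived cells was 0.06 for ARAF (95% interval -0.08 to 0.19) and 0.01 for BRAF (95% interval -0.23 to 0.25). BRAF in the lone vector control library was lower than in all 4 parental libraries, but its log2 difference of 0.44 (SE 0.23) was not called (adjusted p = 0.321).

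KSR1 lies on the plus strand of chromosome 17 at 27456470 to 27626438, and its protein is a pseudokinase scaffold for RAF, MEK and ERK. It measured 19.1, 18.1 and 21.5 CPM in BPH-1 vector control libraries and 14.0, 13.2 and 11.9 CPM in parental libraries. All parental libraries were below all vector control libraries, and KSR1 fell by 0.58 on the log2 scale (SE 0.07, adjusted p = 2.96e-08). After metastasis it was at 11.6, 33.6 and 9.49 CPM, so that R072 alone exceeded both earlier stages. The log2 change was 0.56 (SE 0.51, adjusted p = 0.417), and without R072 its sign turned, to -0.27 (adjusted p = 0.166). RWPE-1 had 7.29 CPM in the vector control, 6.87, 6.41, 9.39 and 9.18 CPM in parental cells and 7.04 to 9.16 CPM (median 7.75) in metastasis-derived cells, all below BPH-1. A stretch of 3075 bases of the KSR1 locus, introns included, overlaps the gene AC015688.4 on the same strand. Whether this overlap affected any reads was not examined.

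MAP2K1 and MAP2K2 encode MEK1 and MEK2, the kinases that phosphorylate ERK. MAP2K1 lies on the plus strand of chromosome 15 at 66386817 to 66492312, and MAP2K2 on the minus strand of chromosome 19 at 4090321 to 4124129. MAP2K2 measured 184, 177 and 182 CPM in BPH-1 vector control cells, 161, 155 and 155 CPM in parental cells and 67.5, 74.98 and 60.3 CPM in metastasis-derived cells. The 3 stages did not overlap, and each was below the one before. MAP2K2 fell by 0.20 on the log2 scale with C-Raf (SE 0.03, adjusted p = 5.9e-07) and by 1.15 from parental to metastasis-derived cells (SE 0.17, adjusted p = 0.0049), to 0.451 of the parental level.

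MAP2K1 measured 167, 164 and 164 CPM in BPH-1 vector control cells, 161, 157 and 159 CPM in parental cells and 84.0, 98.9 and 135 CPM in metastasis-derived cells. All 3 metastasis-derived libraries were below the parental ones, with R075 the closest to them. The log2 change of -0.52 (SE 0.21, adjusted p = 0.0968) was not called, and without R075 it was -0.72 (SE 0.15, adjusted p = 0.0142). With C-Raf the log2 change was -0.05 (adjusted p = 0.142), with a 95% interval of -0.10 to 0.01. The MAP2K1 locus, introns included, overlaps SNAPC5 over 2178 bases and AC116913.1 over 3452 bases, both on the opposite strand.

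In RWPE-1, MAP2K2 was at 157 CPM in the vector control, at 134, 114, 94.7 and 100.4 CPM in parental cells and between 115 and 140.0 CPM (median 125) in metastasis-derived cells. The vector control was the highest of the 12 RWPE-1 libraries. The log2 difference of -0.50 between parental and vector control cells (SE 0.16) was not called (adjusted p = 0.162). Without parental library 1, the parental library of the vector control's own table, it was called, at -0.61 (adjusted p = 0.0161), when 1447 genes were called in all. Within that table the log2 difference was -0.22, between 1 library and 1 library with no test. MAP2K1 was at 123 CPM in the RWPE-1 vector control, at 168, 159, 165 and 158 CPM in parental cells and between 115 and 183 CPM (median 157) in metastasis-derived cells. The bone lines held 115 to 146 CPM of MAP2K1, and the spine and lymph node lines held 157 to 183 CPM. Site and table partly coincide, and the sites were not tested against each other.

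MAPK3, which encodes ERK1, lies on the minus strand of chromosome 16 at 30114105 to 30123506. It measured 57.0, 54.4 and 57.3 CPM in BPH-1 vector control cells, 52.1, 49.0 and 48.1 CPM in parental cells and 32.7, 46.4 and 32.7 CPM in metastasis-derived cells. The 3 stages did not overlap, and R072 was nearest to the parental range. MAPK3 fell by 0.17 on the log2 scale with C-Raf (SE 0.04, adjusted p = 3.0e-04). From parental to metastasis-derived cells the log2 change was -0.35 (SE 0.21, adjusted p = 0.225), and without R072 it was -0.57 (SE 0.07, adjusted p = 0.0024). RWPE-1 held 32.4 CPM in the vector control, 28.2, 25.2, 27.0 and 25.7 CPM in parental cells and 21.7 to 30.9 CPM (median 22.4) in metastasis-derived cells. In RWPE-1, 6 of the 7 metastasis-derived libraries were below all parental libraries, and the spine line at 30.9 CPM was above them. The log2 change was -0.16 (95% interval -0.35 to 0.03, adjusted p = 0.702).

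**Figure D2:**
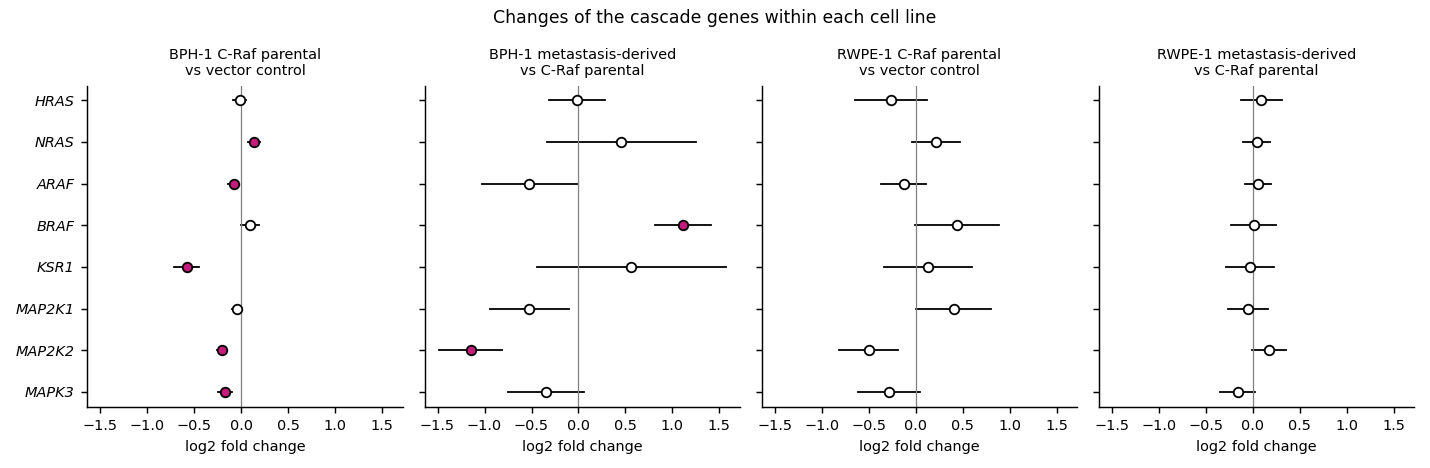
Log2 fold change of each cascade gene in the 4 comparisons within a cell line, with approximate 95% intervals as horizontal lines. These are normal intervals from the SE, narrower than the quasi-likelihood test would give. That of ARAF in metastasis-derived BPH-1 cells, -1.03 to -0.02, leaves out 0 although the unadjusted p of that test was 0.084. Filled points passed an adjusted p of 0.05 over all genes tested: 5 genes with C-Raf in BPH-1, BRAF and MAP2K2 from parental to metastasis-derived BPH-1 cells, and 0 in both RWPE-1 comparisons.

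Whether the change from parental to metastasis-derived cells differed between the lines was tested directly (RWPE-1 minus BPH-1). Of the 8 genes 4 passed, a share near the 46.5% of 15251 genes called in this test. The difference in log2 change was 1.39 for MAP2K2 (SE 0.15, adjusted p = 1.5e-06), -1.05 for BRAF (SE 0.18, adjusted p = 1.5e-04), 0.66 for ARAF (SE 0.19, adjusted p = 0.0079) and 0.53 for MAP2K1 (SE 0.20, adjusted p = 0.0387). The MAP2K1 call was lost in 12 of 17 fits that left out 1 library, and neither ARAF nor MAP2K1 was called within either line. The SE from these 21 libraries were below those of the BPH-1 change alone for ARAF (0.26), MAP2K1 (0.21) and MAP2K2 (0.17). The biological coefficient of variation was 26.6% in this fit and 35.3% in that of the BPH-1 change, so these SE may be too small. With length and GC offsets, chosen after seeing the data, MAP2K1 and MAP2K2 kept their call, and ARAF and BRAF lost theirs. Of 58 other pathway genes (lists below), 15 were called higher and 10 lower in the main fit, and 19 and 11 with the offsets. The share of all genes called with the offsets is not given here. Without R072, NRAS at -0.74 (adjusted p = 5.3e-05) and MAPK3 at 0.44 (adjusted p = 0.0164) passed, whereas MAP2K1 did not. With both lines pooled, 0 of the 8 genes were called between vector control and parental cells (0.813% of 15251 genes called) or between parental and metastasis-derived cells (2.62% called). At an unadjusted p below 0.05 the counts were 1 and 2 of the 8, beside 1434 and 4172 of 15251 genes. DESeq2 also called 0 of the 8 in each. The largest pooled log2 change was -0.46 for MAP2K2 in the former and 0.38 for BRAF in the latter.

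At the parental stage, 6 of the 8 genes differed between the lines (background 56.8%, as above). Beside HRAS and NRAS, they were MAPK3 with a log2 difference of -0.91 (SE 0.13, adjusted p = 1.1e-05), ARAF with -0.68 (SE 0.14, adjusted p = 3.6e-04), MAP2K2 with -0.50 (SE 0.11, adjusted p = 8.8e-04) and KSR1 with -0.71 (SE 0.29, adjusted p = 0.0444). NRAS was higher in RWPE-1 and the other 5 lower. The KSR1 call was lost in 5 of 7 fits that left out 1 library, and the NRAS call in 4 of 7. MAP2K1 had a log2 difference of 0.03, with a 95% interval of -0.26 to 0.32. With length and GC offsets the MAP2K2 difference was 0.02 and no longer called, NRAS was not called at 0.15 (adjusted p = 0.44), and BRAF was called at -0.87 (adjusted p = 7.1e-05).

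Transcript length and GC content moved with the changes in metastasis-derived BPH-1 cells. Over all genes tested, the median log2 change ran from -0.31 in the class of the shortest transcripts to 0.58 in the class of the longest, and from 0.40 at the lowest GC content to -0.34 at the highest. In the other comparisons within a line these medians stayed between -0.10 and 0.08. BRAF, with a longest transcript of 9.58 kb and 40.0% GC, lies in the longest and the lowest GC class, where the median log2 change was 0.74, and it was 0.38 above that median. MAP2K2, at 1.73 kb and 65.5% GC, lies in the shortest and highest GC class, where the median was -0.62, and it was 0.53 below. HRAS, at 1.23 kb and 65.8% GC, is in the same class and was 0.60 above its median. With C-Raf in BPH-1, the median of the length and GC class was -0.07 for ARAF, beside its own log2 change of -0.08. It was -0.07 for MAPK3 (change -0.17), -0.10 for KSR1 (-0.58), -0.02 for MAP2K2 (-0.20) and 0.03 for NRAS (0.13). With length and GC offsets ARAF lost its call there, and MAPK3, KSR1, MAP2K2 and NRAS kept theirs.

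An alternative chosen after seeing the data removed the median deviation of each length and GC class from every library. The log2 change of BRAF then was 0.50 (SE 0.19), and its call was lost (adjusted p = 0.0849). MAP2K2 kept its call at -0.50 (SE 0.13, adjusted p = 0.0301). HRAS was called with a rise of 0.63 (SE 0.12, adjusted p = 0.0106), although its levels in R069 and R075 were below those of all parental libraries. The part of length, GC content or the RN7SL1 share in these changes was not tested. Other values that moved with the BPH-1 metastasis-derived libraries included epithelial markers, in both directions. KRT8 was at 53.4 to 184 CPM against 1037 to 1064 CPM in parental cells, and KRT14 at 2957 to 4303 CPM against 341 to 349 CPM. KRT18 and EPCAM were also below their parental ranges, whereas KRT5, CDH1 and TP63 overlapped theirs. The summed fibroblast markers were at 42.4 to 58.9 CPM against 12.9 to 13.1 CPM. Of the 6 fibroblast genes, COL1A1 made up 41.7 to 56.7 CPM of that sum. Endothelial markers summed to 2.38 to 24.1 CPM against 1.65 to 1.72 CPM, with VWF at 2.06 to 23.7 CPM and PECAM1 at most 0.243 CPM. The endothelial gene CDH5 went the other way, at 0.146 to 0.320 CPM against 0.853 to 0.913 CPM in parental cells. Haematopoietic markers summed to 0.826 to 2.31 CPM against 2.70 to 3.06 CPM, with CD14 at 0.535 to 2.06 CPM and PTPRC at most 0.0361 CPM. Their part in the changes was not tested.

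**Figure D3:**
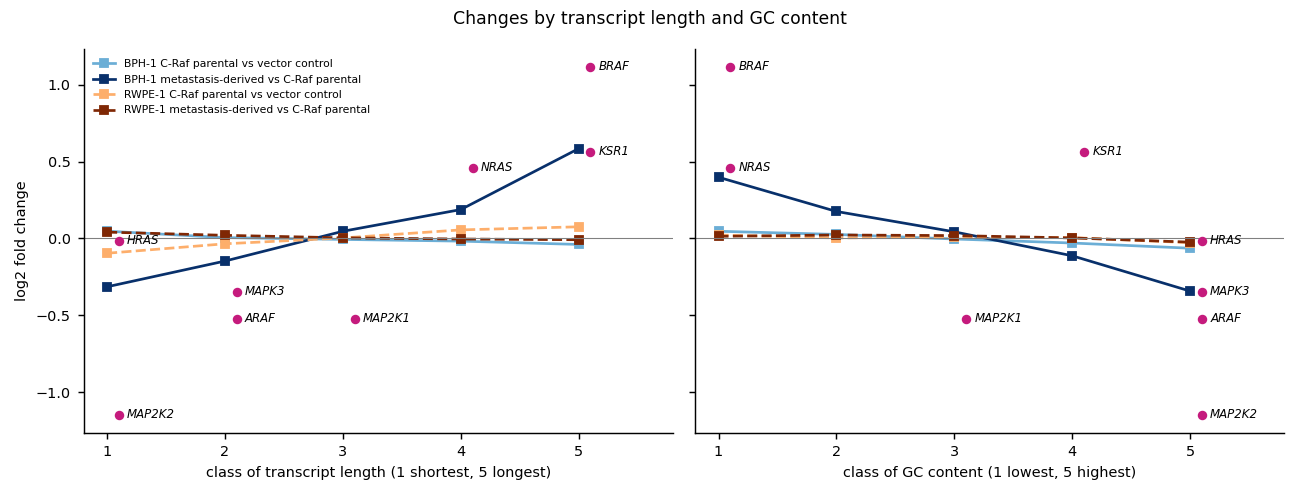
Median log2 fold change over the genes tested in 5 classes of transcript length (left, shortest to longest) and 5 classes of GC content (right, lowest to highest), with 1 line per comparison within a cell line. The labelled points are the cascade genes in the comparison of metastasis-derived with parental BPH-1 cells. In that comparison the medians rise from -0.31 to 0.58 with length and fall from 0.40 to -0.34 with GC content, and the other lines stay between -0.10 and 0.08.

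Ratios of counts between paralogous genes do not depend on the scaling of a library, but they are not adjusted for transcript length or GC content. From parental to metastasis-derived BPH-1 cells, the median log2 change was -0.49 in the length and GC class of ARAF. In the class of BRAF it was 0.74, in that of MAP2K1 -0.05 and in that of MAP2K2 -0.62. The part of these classes in the ratios was not tested, and the ratios are given as a description without a test. The ARAF to BRAF ratio was 3.13 ± 0.105 (SD, n = 3) in BPH-1 vector control cells, 2.78 ± 0.174 (n = 3) in parental cells and 0.877 ± 0.228 (n = 3) in metastasis-derived cells. In RWPE-1 it was 3.11 in the vector control, 2.15 ± 0.421 (n = 4) in parental cells and 2.19 ± 0.190 (n = 7) in metastasis-derived cells. ARAF counts thus exceeded BRAF counts in all RWPE-1 libraries and all earlier BPH-1 libraries, but only in R072 (ratio 1.14) among the 3 metastasis-derived BPH-1 libraries.

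The MAP2K1 to MAP2K2 ratio was 0.910 ± 0.0132 (n = 3) in BPH-1 vector control cells and 1.01 ± 0.0139 (n = 3) in parental cells. It was 1.24, 1.32 and 2.25 in R069, R072 and R075, so MAP2K1 counts exceeded MAP2K2 counts in each. In RWPE-1 the ratio was 0.782 in the vector control, 1.49 ± 0.212 (n = 4) in parental cells and 1.26 ± 0.158 (n = 7) in metastasis-derived cells. The NRAS to HRAS ratio was 1.31 ± 0.0526 and 1.46 ± 0.0837 (n = 3 each) in BPH-1 vector control and parental cells and 2.51, 0.799 and 2.99 in R069, R072 and R075. In RWPE-1 it was 3.45 in the vector control and lay between 3.81 and 5.64 in the 11 other libraries.

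**Figure D4:**
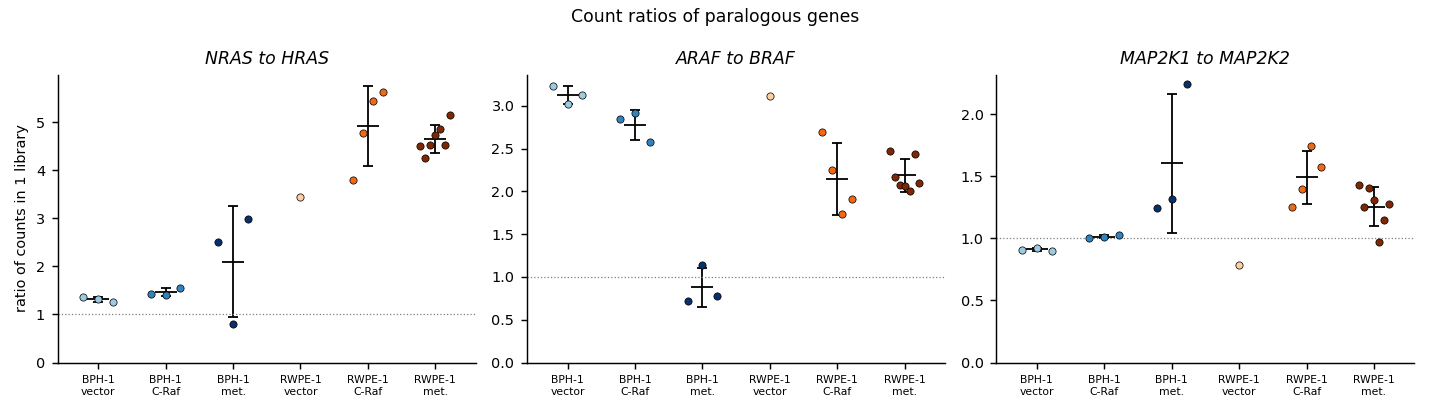
Ratio of the counts of 2 paralogous genes within a library, on an axis from 0, with the group mean as a bar and 1 SD as whiskers. The dotted line marks equal counts, and the ratios are not adjusted for transcript length or GC content. ARAF to BRAF falls to 0.720 to 1.14 in the BPH-1 metastasis-derived libraries, and stays at 1.74 or more in all other libraries.

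Compared per kb of the longest transcript, the level in BPH-1 vector control cells was highest for MAP2K2, at 104 CPM per kb. HRAS (56.7), MAP2K1 (48.4), ARAF (34.9), MAPK3 (21.9) and NRAS (20.6 CPM per kb) followed. BRAF at 2.92 and KSR1 at 2.70 CPM per kb were far below the rest. Per kb of merged exons MAP2K1 came ahead of MAP2K2, at 43.9 against 34.6 CPM per kb, and BRAF and KSR1 were again lowest, at 1.19 and 1.61 CPM per kb.

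The low-depth libraries held 50 to 265 counts of the 8 genes together. In these, BRAF had 196 counts in R071, 16 in R074 and 43 in the R075 library titled bone, which is 422 CPM (95% exact Poisson interval 365 to 485), 120.8 CPM (69.1 to 196) and 387 CPM (280 to 521). These CPM are per library without TMM scaling. Each interval lies above the highest BRAF level of the deeper libraries, 64.9 CPM with TMM scaling, although R074 only just so. The intervals cover counting error only, not the spread between libraries. The other 7 genes had 0 to 27 counts each. Their intervals were wide, such as 2.18 to 65.0 CPM for NRAS in that R075 library and 21.3 to 108.9 CPM for ARAF in R074. HRAS and ARAF had 0 counts in R071, with an exact Poisson interval of 0 to 7.94 CPM. With these 3 libraries included, BRAF was still called (log2 change 3.32, SE 1.05, adjusted p = 0.0424), MAP2K2 was not (-1.58, adjusted p = 0.0658), and the sign of NRAS turned to -0.14.

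Other genes of the pathway were read from 6 lists with 58 genes in all. In BPH-1 with C-Raf, 57 were tested, 19 rose and 11 fell, where 30.4% of all genes rose and 29.4% fell. Their median log2 change was 0.02, beside -0.00 over all genes tested. From parental to metastasis-derived BPH-1 cells, 8 of 57 rose and 11 fell, where 21% of all genes rose and 16.8% fell. The median was -0.04 beside 0.08. Without R072 the counts were 14 and 22, with any 1 parental library left out 2 or 3 and 1, and with the low-depth libraries 1 and 2. Of the genes named below for this comparison, RIT1, RPS6KA5 and LAMTOR1 kept their call in all 6 fits that left out 1 library. RASGRP1 lost its call in 1 of these fits, RRAS and PEBP1 in 4, and each of the other named genes in 3.

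Among RAS GTPase-activating proteins and their partners, which switch RAS off, 5 of 10 rose and 3 fell with C-Raf in BPH-1. RASA1 rose from 42.9 to 80.5 CPM, by 0.91 on the log2 scale (SE 0.04, adjusted p = 8.9e-18), and RASA2 by 0.58. DAB2IP fell by 0.32 and RASAL2 by 0.22. From parental to metastasis-derived cells 3 of 10 rose and 0 fell, with RASA2 up by 1.09 (SE 0.21, adjusted p = 0.0093) and NF1, the neurofibromin gene, by 0.78 (SE 0.22, adjusted p = 0.0326). In RWPE-1, RASA3 rose with C-Raf from 9.03 CPM in 1 vector control library to 29.3 to 42.4 CPM in the 4 parental libraries (log2 change 2.03, SE 0.25, adjusted p = 0.0054), the only gene of all 6 lists called in either RWPE-1 comparison (56 tested).

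Among adaptors and exchange factors, which load RAS with GTP, 1 of 9 rose and 4 fell with C-Raf in BPH-1. The adaptor gene SHC1 rose by 0.27 (SE 0.03), and the low-level exchange factor genes RASGRP2 and RASGRP1 fell by 1.43 and 0.96. From parental to metastasis-derived cells 2 rose and 2 fell. RASGRP1 rose by 2.49 (SE 0.47, adjusted p = 0.0095), from a mean of 1.05 to 5.95 CPM, and SOS2 by 0.95, whereas SHC1 fell by 0.88 and GRB2, which brings SOS to activated receptors, by 0.67 (SE 0.16, adjusted p = 0.0204).

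Among 7 RAS relatives, 2 rose and 2 fell with C-Raf in BPH-1. RRAS rose by 0.33 and RHEB by 0.09, whereas MRAS, whose protein joins SHOC2 in activating RAF, fell by 1.11 and RALB by 0.10. The calls of RHEB and RALB were lost in 3 and 4 of 6 fits that left out 1 library. In metastasis-derived cells RIT1 rose by 2.13 (SE 0.15, adjusted p = 0.0011), from 14.1 to 61.9 CPM, and RRAS fell by 1.98 (SE 0.42, adjusted p = 0.013). Of 8 enzymes of RAS lipid processing, 4 rose and 0 fell with C-Raf, among them the depalmitoylases LYPLA1 by 0.44 and LYPLA2 by 0.36. In metastasis-derived cells 0 rose and 2 fell, LYPLA2 by 0.96 and the farnesyltransferase subunit gene FNTB by 1.18.

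Among 17 scaffolds, chaperones and inhibitors of RAF and MEK, 4 rose and 2 fell with C-Raf in BPH-1. HSP90AA1 rose by 0.25 and the 14-3-3 gene YWHAZ by 0.23, and LAMTOR1 fell by 0.15 and PEBP1, which encodes a RAF inhibitor, by 0.12. In metastasis-derived cells 1 rose and 4 fell, with SHOC2 up by 1.24 (SE 0.25, adjusted p = 0.0114) and LAMTOR1 and PEBP1 down, changing by -1.15 and -1.14. Of 6 kinases activated by ERK, 3 rose with C-Raf, with RPS6KA2 up by 0.53 and RPS6KA1 by 0.30. In metastasis-derived cells RPS6KA5 rose by 1.68 (SE 0.19, adjusted p = 0.0026) and RPS6KA1 fell by 0.80 (SE 0.15, adjusted p = 0.0089).

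**Figure D5:**
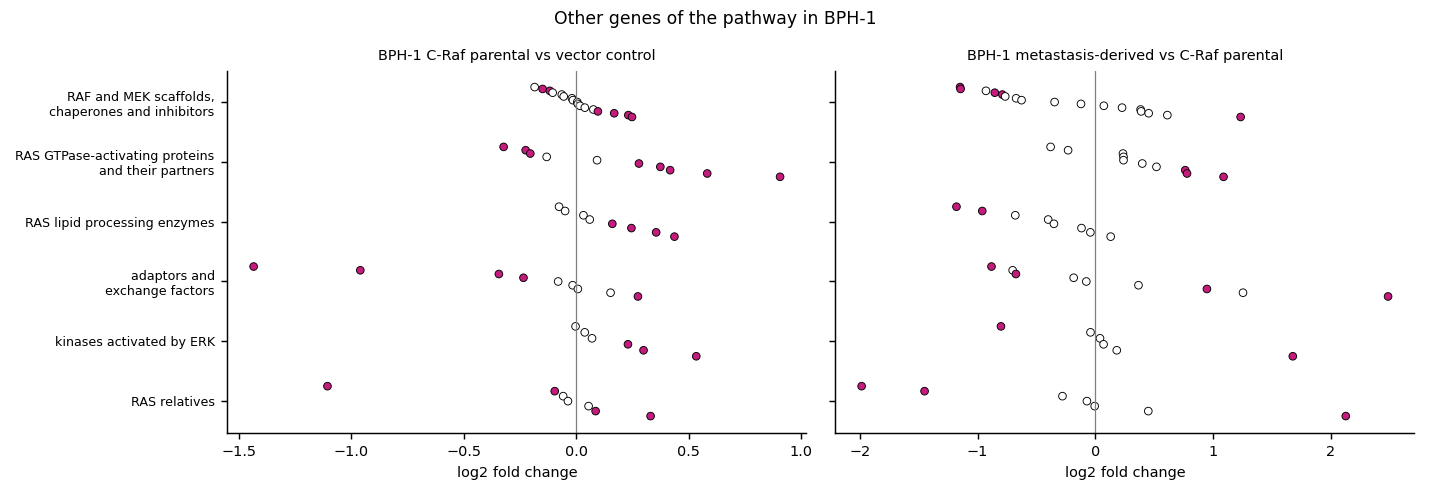
Log2 fold change of the other pathway genes in BPH-1, with 1 point per gene in 6 lists, for C-Raf parental against vector control (left) and metastasis-derived against C-Raf parental cells (right). Filled points passed an adjusted p of 0.05: 30 of 57 genes on the left and 19 of 57 on the right, in both directions.

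Across the 21 deeper libraries the 8 genes did not move as a block. Pearson's r of log2 levels ran from -0.92 between NRAS and KSR1 to 0.87 between HRAS and MAPK3, with 0.86 between ARAF and MAPK3 and 0.03 between ARAF and BRAF. These correlations are over libraries of 2 lines and 3 stages that share line and table, and are given as a description. The widest range was that of KSR1, 5.24-fold from lowest to highest library, and the narrowest that of ARAF, 1.98-fold. The genes most like each cascade gene over these libraries were ACTR3B for HRAS (r = 0.98), GMFB for NRAS (0.98), SMG9 for ARAF (0.96), ZNF567 for BRAF (0.97), KIAA0513 for KSR1 (0.97), CDA for MAP2K1 (0.93), APEH for MAP2K2 (0.97) and VWA1 for MAPK3 (0.97).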

How the data were processed

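RNA was sequenced in 24 libraries of BPH-1 and RWPE-1. The files deposited by the authors are 4 tables of expected counts per gene, estimates of the reads from each gene that RSEM produced within the TOIL pipeline. The labels' processing notes also name STAR, cutadapt, FastQC and the build hg38. Versions, annotation and strand setting are not given in the sources used here. The deposited expected counts are not scaled to depth, and precede the authors' coding gene filter and ComBat-seq step. All columns matched a listed sample. The RNA library kit is named as an mRNA kit.

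Expected counts were rounded. They were whole numbers in all 24 libraries for HRAS, NRAS, ARAF and MAPK3. For KSR1, BRAF, MAP2K2 and MAP2K1 they were whole in only 16, 8, 6 and 3 of the 24. Of 60448 symbols, 36628 were found in GENCODE 29 and 1113 under an older symbol, and the 19268 protein-coding ones were used. Genes were kept by filterByExpr by group, libraries were scaled by TMM, and edgeR 4.0.16 (R 4.3.3) fitted the quasi-likelihood model to the libraries of each comparison: both BPH-1 comparisons on the groups compared, the RWPE-1 ones on all 12 RWPE-1 libraries (the lone vector control is assumed to vary like the rest), the others on all 21 deeper libraries, with cell line as a term where lines were pooled. Benjamini-Hochberg adjustment was over all genes tested, at 0.05. SE are the log2 fold change over the square root of F. CPM of the other pathway genes use the scaling of their own comparison, whereas those of the 8 genes use that of the 21 libraries. Together the 8 genes had 6322 to 25449 counts in each of the 21 libraries. Scripts were tested on simulated data.

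The 8 genes and the lists were chosen with earlier results of these data known. Of the lists, genes are named if they were among the 2 largest rises or 2 largest falls of a list in a comparison within a line, past the threshold and with a mean of at least 1 CPM. The likeness rule took the genes of highest Pearson r over the 21 libraries, of which the top 1 is printed. Alternatives were RLE factors, no filter, DESeq2 1.42.0, all genes, single libraries left out, low-depth libraries included, a replicate block, terms or subsets by table, compared stages only, and length and GC offsets (added after seeing the data). The targeted gene is not reported here. Protein and promoter sequences were not used here.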

Additional observations from a re-analysis of the deposited data

Results flagged for a closer look

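MAPK3 in 1 RWPE-1 spine line, at 30.9 CPM, lay apart from the other 6 RWPE-1 metastasis-derived libraries. Its gap to the nearest of them was 0.800 of the whole range, above Dixon's 95% critical value for 7 libraries. By chance about 1 in 20 such tests passes this value, and 16 were made, so 1 flag is not unusual. Without this library, MAPK3 was called in the pooled comparison of metastasis-derived with parental cells (log2 change -0.31, adjusted p = 0.0479 by edgeR's quasi-likelihood test).

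The change from parental to metastasis-derived cells differed between the lines, RWPE-1 minus BPH-1, for ARAF (0.66), BRAF (-1.05), MAP2K1 (0.53) and MAP2K2 (1.39) on the log2 scale. With length and GC offsets, chosen after seeing the data, the values were 0.43 (adjusted p = 0.0561), -0.47 (adjusted p = 0.0615), 0.47 (adjusted p = 0.0486) and 0.83 (adjusted p = 6.2e-05), so ARAF and BRAF were no longer called. In the main fits, ARAF and MAP2K1 were called within neither line.

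BRAF in the low-depth libraries stood at 422 CPM (R071), 120.8 CPM (R074) and 387 CPM (the R075 library titled bone), above the 27.8 to 31.3 CPM of BPH-1 parental cells. These libraries entered no main comparison and hold 16 to 196 BRAF counts each.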

How the results depend on the processing

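Each comparison was refitted under the alternatives. Over settings other than leaving out 1 library, 376 of 424 values of the 8 genes kept their direction and their side of the threshold (or, without a test, moved by less than 1 SD), and over fits without 1 library 578 of 632 did. The cause of the others was not tested.

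With RLE factors or DESeq2, HRAS from parental to metastasis-derived BPH-1 cells turned to 0.014 and 0.012, and MAP2K1 in the pooled comparison of parental with vector control cells turned to 0.014 and 0.015. DESeq2 called more genes in RWPE-1 (776 with C-Raf, 182 after metastasis) and in the pooled comparisons (455 and 956). With length and GC offsets, signs turned from parental to metastasis-derived BPH-1 cells for HRAS (0.63) and MAPK3 (0.16), in RWPE-1 for KSR1 (0.013), in the pooled comparisons for HRAS with C-Raf (0.025) and KSR1 after metastasis (-0.029), in the difference between lines for HRAS (-0.39), KSR1 (0.13) and MAPK3 (-0.15), and for MAP2K2 between lines at the parental stage (0.019). In the difference between lines, MAP2K1 and MAP2K2 were then the 2 of the 8 genes called, beside 19 higher and 11 lower of 58 other pathway genes.

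With the low-depth libraries, 2108 genes and 1 of the 8 were called from parental to metastasis-derived BPH-1 cells, where NRAS turned to -0.14. The pooled comparison of parental with vector control cells called 37 genes, HRAS turned to -0.12 in the pooled comparison after metastasis, MAPK3 turned to -0.077 in the difference between lines, and 2 of the 8 were called both there and between lines at the parental stage. Of 58 other pathway genes, 11 were then called higher and 7 lower in the difference between lines (15 and 10 in the main fit). At the parental stage 13 and 9 were called (21 and 16 in the main fit). With all genes of the tables the pooled comparison after metastasis called 1781 genes, and HRAS turned to -0.050. With the compared stages only, the pooled comparisons called 1646 genes with C-Raf (1 of the 8, MAPK3 at -0.21, adjusted p = 0.0238, and MAP2K1 turned to 0.11) and 172 after metastasis.

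Within the table with 3 RWPE-1 parental libraries, 2 genes were called after metastasis and BRAF turned to -0.027. Within the table with 1, 181 genes were called, and HRAS (-0.13), ARAF (-0.026), KSR1 (0.15), MAP2K1 (0.0087) and MAP2K2 (-0.12) turned.

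Leaving out 1 library at a time gave these ranges. With C-Raf in BPH-1, HRAS ran from -0.036 to 0.0066. After metastasis in BPH-1, 1957 to 8325 genes and 2 to 5 of the 8 were called, with the fewest without a parental library (1957 to 2095) and the most without R072, and HRAS ran from -0.11 to 0.035 and KSR1 from -0.27 to 0.87. In RWPE-1, 18 to 1447 genes and 0 to 1 of the 8 were called with C-Raf, the most without parental library 1, and 4 to 41 genes after metastasis, where HRAS ran from -0.00076 to 0.19, BRAF from -0.091 to 0.094, KSR1 from -0.12 to 0.056 and MAP2K1 from -0.091 to 0.011. In the pooled comparisons, 38 to 286 genes were called with C-Raf, where MAP2K1 ran from -0.21 to 0.036, and 103 to 491 genes and 0 to 1 of the 8 after metastasis, where HRAS ran from -0.037 to 0.069 and KSR1 from -0.082 to 0.24. KSR1 ran from -0.82 to 0.28 in the difference between lines.

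The replicate numbers of the BPH-1 vector control and parental libraries did not pair them: deviations of same-numbered libraries correlated at 0.04, -0.05 and -0.04. With the number as a replicate block, 7681 genes and 4 of the 8 were called, ARAF at -0.08 being lost (adjusted p = 0.0516).

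Depth limits the 3 low-depth libraries, where 7 of the 8 genes had at most 27 counts. The lone RWPE-1 vector control gives no spread of its own.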
